A study of Macaca fascicularis with 10 samples.

Results

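The genes described here encode cell adhesion molecules of neurons and the ligands and receptors of axon guidance. They were chosen by symbol: every row of the count table whose name begins with the symbol of a cadherin, protocadherin, contactin, neurexin, neuroligin, synaptic leucine-rich repeat protein, NCAM, DSCAM, teneurin, Slit, Robo, semaphorin, plexin, Eph receptor, ephrin, UNC5 or netrin-G family, with CNTNAP2 and NLGN4X left out. This gave 79 of the 7229 genes in the table. The rule itself used no measured value, though it was chosen with earlier results of these data known. RNA came from the dorsal raphe nucleus, a brainstem region that supplies much of the forebrain with serotonin. It was taken from 10 female cynomolgus macaques (Macaca fascicularis) whose labels name both parents. All belong to the same group, and the labels give no age, genotype or treatment. Each gene has a count of reads assigned to the paternal and to the maternal allele in each daughter, so the quantity described is the paternal share: paternal reads as a percent of the reads assigned to either parent. The animals are called daughters 1 to 10 by accession order, and a share is given only where a daughter had 10 or more allelic reads of the gene.

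These proteins sort neurons and wire them together. Cadherins and many protocadherins bind their own kind on the neighbouring cell, while neurexins on the axon side bind neuroligins and leucine-rich repeat proteins across the synapse. Slits, semaphorins, ephrins and netrins are guidance cues, read by Robo receptors, plexins, Eph receptors and UNC5 receptors on the growing axon, and many of these genes stay on in the adult brain. No row of the table carried a symbol of the clustered protocadherins, a textbook case of random choice between alleles in single neurons. None carried a symbol of the SLITRK or ephrin-A genes either, so these families are not analysed here. Symbols are not functions: UNC50, a Golgi and nuclear membrane protein, matched the UNC5 pattern and is no netrin receptor, and CDHR1 is a cadherin-related protein known from photoreceptors.

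Depth set what could be seen. Allelic reads per daughter ranged from 30090 to 999471 over all genes, and daughter 1 was the shallowest. The 79 genes held 82633 allelic reads, 1.496% of all, of which CNTN1 alone held 38.7% and NCAM1 13.5%. Of the 79, 74 had at least 1 measurement of 10 or more reads, 48 had them in 5 or more daughters, and 4 had them in all 10 daughters. CDH15, NTNG2, PCDH7, PCDH8 and SEMA5B had none. With 20 reads a share had to reach 75% before its 95% Wilson interval left out 50%, with 100 reads 60%, and with 1000 reads 53.1%. These intervals hold the error of counting alone, because copies of 1 molecule can be read many times. The number of reads of a gene also follows how many positions tell the parents apart in that daughter, so it is given as depth and not as an expression level. As for the tissue, TPH2, the enzyme of brain serotonin synthesis, had 9561 allelic reads and was measured in 7 daughters. The table held 6 of 10 serotonin neuron markers, of which 5 were measured. Of markers of other cells, VWF of endothelium was measured in 10 daughters and GPR17 of oligodendrocyte precursors in 9. GAD1 of GABA neurons, TH of catecholamine neurons and TTR of choroid plexus were measured in 6 each. The cerebellar marker CA8 was measured in 5 and HBB, the adult beta globin of blood, in 1. The table held 3 of 4 endothelial markers, 2 of 3 of oligodendrocyte precursors and of GABA neurons, and 4 of 4 of catecholamine neurons. It held 1 of 2 of choroid plexus, 1 of 3 of blood and 1 of 3 of cerebellum. None of 5 astrocyte, 5 oligodendrocyte and 4 microglia markers was in it. The part of these cells in the shares below was not tested.

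The parental columns did not point the same way in all daughters. DLK1 and MEST are known from human and mouse to be expressed from the paternal copy. DLK1 had a paternal share of 98.6%, 100%, 100% and 96.8% in daughters 3, 4, 5 and 10, and 1.74% of 115 reads in daughter 6. MEST had 91.3% in daughter 3 and 3.09% of 162 reads in daughter 6. GRB10, whose parental copy depends on the tissue, lay between 96.0% and 98.2% in daughters 3, 4, 5 and 10 and at 5.08%, 2.97% and 9.16% in daughters 2, 6 and 9. COPG2 lay between 76.1% and 87.8% in daughters 2, 6, 7, 8 and 9, and at 22.4% and 23.5% in daughters 3 and 5. Which column holds which parent was not tested further, and every statement below on a direction over daughters takes the columns as labelled. Counts of shares away from 50% do not depend on it. None of these genes was measured in daughter 1, and COPG2 alone speaks for daughters 7 and 8.

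Most adhesion and guidance genes were read about equally from both alleles. Of 415 measurements of a gene in a daughter, 301 (72.5%) lay between 40% and 60% paternal, against 69.8% over all genes of the table. The median share was 49.5%, against 50% over all genes. The 95% interval left out 50% in 79 measurements (19.04%), against 20.1% over all 27887 measurements, so the set lay near the background. These 79 were split between the parents, with 38 above 50% (9.16%, against 9.50% over all genes) and 41 below (9.88%, against 10.6% over all genes). In daughters 1, 3, 4, 5 and 10 there were 19 above and 24 below, and in daughters 2, 6, 7, 8 and 9 there were 19 above and 17 below. In no case among the 335 measurements of at least 20 reads did 1 column hold 90% or more of them, a state found in 1.60% of such measurements over all genes. A count of 0 of 335 allows a share of up to 0.896% if each measurement is taken as independent, which repeated measurements of the same genes are not, so the true limit is wider.

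The count of uneven measurements grew with depth, in the set and in the whole table alike. The interval left out 50% in 10.0% of the set's measurements with 10 to 19 reads, against 11.6% over all genes, and in 13.2% with 20 to 49 reads, against 16.0%. It did so in 20.7% with 50 to 99 reads, against 21.0%, and in 22.5% with 100 to 299 reads, against 24.1%. With 300 or more reads it did so in 18 of 45 (40%), against 37.6%. The distances themselves became smaller with depth: the median distance from 50% was 11.5 percentage points at 10 to 19 reads and 2.59 at 300 or more, against 11.1 and 2.85 over all genes. The deeply read genes therefore hold the small departures, and the thinly read ones can show only large ones.

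**Figure D1:**
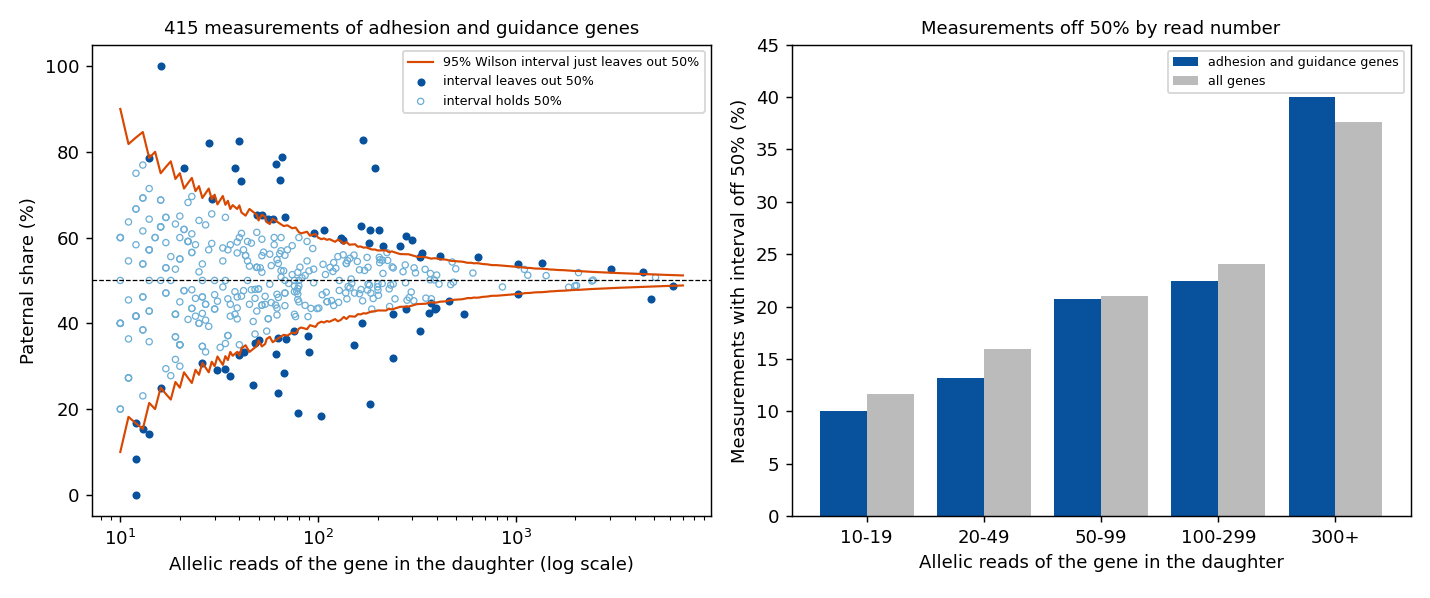
Left, the paternal share (percent) of each adhesion and guidance gene in each daughter against its allelic reads on a log scale, with lines where a 95% Wilson interval just leaves out 50%. Right, the percent of measurements whose interval leaves out 50%, by read number, for these genes and for all genes, which stay within 3 percentage points of each other in every class.

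No gene of the set was called between the parents across daughters with the columns as labelled. By the quasi-likelihood test of edgeR, with the daughter as block, 0 of the 48 genes tested passed a Benjamini-Hochberg adjusted p of 0.05, against 0% of 2981 genes over the table, and DESeq2 also called 0. At an unadjusted p under 0.05 edgeR gave 3 of the 48 (6.25%, against 3.12% over all genes). DESeq2 gave 1 of the 48, against 62 of 2981 over all genes. The edgeR count of 3 became 0 without daughter 5, 7 or 8, 1 without daughter 3 or 4, and 2 or 3 without any other single daughter. Over all genes the count was 67 to 98 in these fits, of 2481 to 2939 tested. The read filter was applied anew each time. CNTNAP4 and PCDH18, 2 of the 3, were measured in only 5 daughters each, so they left the test whenever 1 of those was left out. Part of the fall therefore follows from the filter. The log2 ratio of paternal over maternal was above 0 for 22 of the 48 and below 0 for 26, with a median of -0.01, and -0.01 over all genes tested. A gene with no reads in a daughter entered the fit at 0 in both columns, which carries no weight on the ratio. Every adjusted p in the set was 1 by edgeR. The same fit did not call DLK1 or GRB10, whose paternal shares lay near opposite extremes in different daughters. It therefore could not find a gene whose columns change sides in that way. Without daughters 2, 6, 7, 8 and 9, which were chosen by such values, the fit called both, and 0 of 45 genes of the set. That restricted fit used a lower read filter, 10 or more reads in at least 3 of the daughters kept.

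The 3 genes with an unadjusted p under 0.05 were CDH2, CNTNAP4 and PCDH18, and none passed the adjusted test. CDH2 is N-cadherin, the classical cadherin of neural tissue. Its paternal share was lowest at 47.9% in daughter 1, with a median of 55.4% and a highest value of 56.3% in daughter 5. It lay above 50% in 7 of 9 daughters, with a mean of 53.2% ± 3.18 (SD, n = 9). Its log2 ratio was 0.20 ± 0.08 (SE, edgeR adjusted p = 1). Restricted to daughters 1, 3, 4, 5 and 10 the log2 ratio was 0.17 ± 0.12 (SE, edgeR adjusted p = 1). CNTNAP4, a contactin-associated protein known in the mouse from synapses of interneurons, had 62.5% in daughter 3 and 15.4% to 40% in the other 4 daughters measured, on 10 to 16 reads each. Its log2 ratio was -1.01 ± 0.40 (SE, edgeR adjusted p = 1), and -0.98 ± 0.62 (SE) in the restricted fit. PCDH18, a protocadherin outside the clusters, had 59.1%, 61.9%, 64.4% and 59.1% in daughters 3, 4, 5 and 6, and 47.1% of 17 reads in daughter 8. Its log2 ratio was 0.51 ± 0.22 (SE, edgeR adjusted p = 1), and 0.70 ± 0.33 (SE) in the restricted fit.

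**Figure D2:**
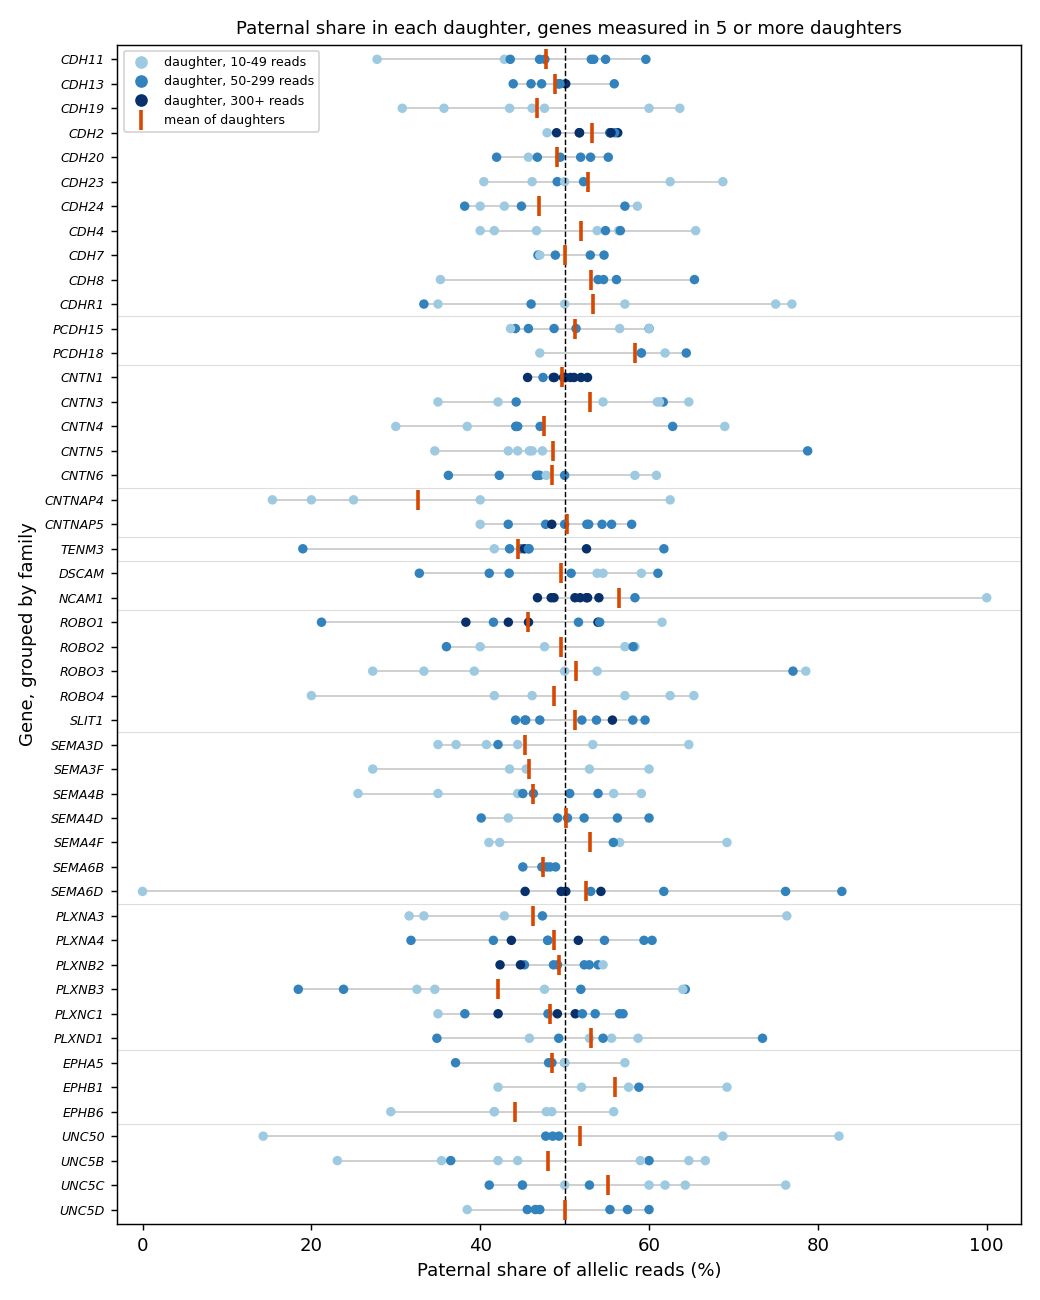
Paternal share of allelic reads (percent) for the 48 genes measured in 5 or more daughters, grouped by family. Each point is a daughter, shaded by its reads, and the orange tick is the mean of daughters. Deeply read genes such as CNTN1 keep to a narrow band around 50%, and SEMA6D and UNC50 have the widest ranges.

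Daughters differed from each other about as much in these genes as elsewhere. The SD of the paternal share over daughters had a median of 9.90 percentage points over the 48 genes, against 9.53 over all 2981 genes measured in 5 or more daughters. It was 6.72 over the 16 genes with a median of 100 or more reads, against 6.74 over all genes of that depth. In 37 of the 48 at least 1 daughter had an interval that left out 50% (77.1%, against 71.0% of all genes), and in 19 at least 2 daughters did (39.6%, against 39.8%). In 11 of the 48 such daughters lay on both sides (22.9%, against 26.7%), and in 8 at least 2 daughters lay off 50% on 1 side only (16.7%, against 13.1%). These sides depend on the column labels. With the columns of daughters 2, 6, 7, 8 and 9 exchanged, 16 genes had daughters on both sides (33.3%, against 24.1%) and 3 on 1 side only (6.25%, against 15.7%). CNTN1, NCAM1, PLXNA3, PLXNA4, PLXNB3, PLXND1, SEMA6D, TENM3 and UNC50 had daughters on both sides either way, and PLXNB2 had them on the maternal side only either way. In 11 genes no daughter had an interval that left out 50%, among them CDH13, CDH7, CDH20, PCDH15 and SEMA6B.

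Large departures were few. Among autosomal measurements with 50 or more reads, 8 of the set lay 20 or more percentage points from 50%. These were TENM3 in daughter 10 at 18.99%, ROBO1 in daughter 4 at 21.2%, SEMA3G in daughter 2 at 28.4%, PLXND1 in daughter 8 at 73.4%, ROBO3 in daughter 5 at 77.0%, CNTN5 in daughter 6 at 78.8%, and SEMA6D in daughters 7 and 8 at 76.2% and 82.8%. They make up 3.70% of such measurements in the set, against 4.07% over all genes. Apart from SEMA6D, each lay in a single daughter.

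Cadherins gave the most measurements of any family and few departures. Of 15 cadherin rows 14 were measured, giving 85 measurements, of which 8 had an interval off 50% (9.41%, against 20.1% over all genes) and 69 lay between 40% and 60%. Here and for the families below, the background of all genes was not matched for depth. It holds X-linked genes too, and was 18.9% over autosomal genes. CDH13, T-cadherin, which is anchored to the membrane by lipid, ranged from 43.9% to 55.9% with a median of 49.3% (n = 8 daughters), and no daughter stood apart. CDH7 was as narrow, with 48.9%, 54.7%, 53.0%, 46.8% and 47.1% in daughters 3, 4, 5, 8 and 10. CDH11, a type II cadherin, was lowest at 27.8% (daughter 7) and highest at 59.6% (daughter 8), with a median of 47.7% (n = 9). Daughter 7 was the only one whose interval left out 50%, on 36 reads (15.9 to 44.0). CDH8, another type II cadherin, had 65.4% of 52 reads in daughter 7 and 35.3% of 34 reads in daughter 8, and 53.96% to 56.1% in daughters 4, 5 and 9. CDHR1 was the most spread of the family, from 33.3% of 90 reads in daughter 6 to 76.9% of 13 reads in daughter 8, with a median of 50% (n = 7). CDH23, whose protein forms the tip links of inner ear hair cells with that of PCDH15, ranged from 40.4% to 68.8% with a median of 50% (n = 7). CDH5, the cadherin of blood vessel walls, had 45.2%, 40% and 68.2% in daughters 2, 3 and 6, on 22 to 31 reads. The others, CDH3, CDH4, CDH19, CDH20, CDH22 and CDH24, had means or single values between 36.8% and 52.2%.

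Protocadherins were measured in 3 of 5 rows. PCDH15 ranged from 43.6% to 60% with a median of 50.05% (n = 8), and all its intervals held 50%. PCDH17 had 52.9% of 306 reads and 50% of 128 reads in daughters 6 and 10. The only departure among 15 protocadherin measurements was PCDH18 in daughter 5, where 64.4% of 59 reads were paternal (51.7 to 75.4).

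Contactins are immunoglobulin proteins held on the neuronal surface by a lipid anchor. CNTN1, which helps to build the junctions beside the node of Ranvier, was the most precisely measured gene of the set, with 78 to 6245 reads per daughter. Daughter 4 had its lowest paternal share, 45.6%, and daughter 10 its highest, 52.7%. The mean was 49.7% ± 2.13 (SD, n = 10). Even so, 4 of its 10 intervals left out 50%: daughters 3 and 10 above, at 51.9% and 52.7%, and daughters 4 and 6 below, at 45.6% and 48.7%. At this depth departures of a few percentage points exceeded counting error, and they fell on both sides. CNTNAP1, its partner at that junction, had 57.1% of 14, 52.5% of 162 and 43.3% of 277 reads in daughters 2, 4 and 5. CNTNAP5 ranged from 40% to 57.9% with a median of 51.3% (n = 10), and 1 interval, in daughter 5, lay above 50%.

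The other contactins were more spread and less deeply read. CNTN4, CNTN5 and CNTN6 are linked to axon outgrowth and circuit formation. CNTN5 had 78.8% of 66 reads in daughter 6 (67.5 to 86.9). In the other 6 daughters it lay between 34.6% and 47.4%, so daughter 6 did not overlap them. Its SD was 13.9 points over 7 daughters and 4.63 without daughter 6. CNTN4 ranged from 30% (daughter 3) to 69.0% (daughter 7), and had a median of 44.3% (n = 8). CNTN6 ranged from 36.2% (daughter 8) to 60.9% (daughter 3), and had a median of 47.1% (n = 9). CNTN3 is described with the title prefixes below. Over the family, 10 of 42 measurements (23.8%, against 20.1% over all genes) had an interval off 50%, of which CNTN1 gave 4.

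The immunoglobulin adhesion molecules NCAM1 and DSCAM followed. NCAM1, the neural cell adhesion molecule, had 16 to 2076 reads. In 9 daughters its share lay between 46.8% and 58.3%, with a mean of 51.6% ± 3.45 (SD, n = 9). In daughter 7 all 16 reads were paternal (80.6 to 100), and with it the mean was 56.5% ± 15.6 (SD, n = 10). That daughter also had far fewer NCAM1 reads than the other 3 of its title prefix, which had 497 to 1354. DSCAM, a homophilic receptor of neurite self-avoidance, ranged from 32.8% (daughter 4) to 61.1% (daughter 2), and had a median of 52.3% (n = 8), and these 2 daughters lay off 50% on opposite sides.

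Synaptic adhesion genes could be measured in few daughters. The presynaptic receptor NRXN2 had 51.4%, 45.9% and 43.5% in daughters 3, 6 and 10, and NRXN3 had 55% in daughter 8. NLGN2, the neuroligin of inhibitory synapses, had 63.0% of 27 and 60% of 20 reads in daughters 5 and 6. None of these 6 measurements had an interval off 50%, and none did among the 4 of LRFN5, LRRTM4 and FLRT3, leucine-rich repeat proteins of the synapse. FLRT3, which also binds UNC5 receptors, had 34.4% of 32 reads and 50% of 18 reads in daughters 6 and 10. TENM3, a teneurin that matches axons to targets, was measured in 9 daughters, with 7 of them between 41.7% and 52.6%. Daughter 3 lay above, at 61.8% of 204 reads (54.9 to 68.2), and daughter 10 below, at 18.99% of 79 reads (11.9 to 29.0). Its mean was 44.4% ± 11.3 (SD, n = 9), and 47.6% ± 6.52 (SD, n = 8) without daughter 10.

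Slits and their Robo receptors gave 11 intervals off 50% among 37 measurements (29.7%, against 20.1% over all genes). Most of the 11 came from ROBO1 and SLIT1, the most deeply read, with up to 1025 and 415 reads. SLIT1, a secreted repellent, ranged from 44.2% (daughter 9) to 59.5% (daughter 4), and had a median of 52.0% (n = 9). Its 3 intervals off 50% all lay above it, in daughters 4, 6 and 8. ROBO1, a receptor for Slit, had shares of 61.5%, 45.7%, 41.6%, 21.2% and 43.3% in daughters 1 to 5, and of 53.95%, 51.6%, 54.1% and 38.3% in daughters 6, 8, 9 and 10. Its lowest value, in daughter 4, rested on 184 reads (15.9 to 27.7). Daughters 4, 5 and 10 lay below 50% with intervals that left it out, and daughter 6 lay above. The log2 ratio was -0.32 ± 0.20 over all 9 daughters and -0.73 ± 0.28 over daughters 1, 3, 4, 5 and 10 (SE, edgeR adjusted p = 1 in both). In the restricted fit ROBO1 was the 1 gene of 45 in the set with an unadjusted p under 0.05 (edgeR p = 0.030), against 97 of 2931 over all genes. ROBO2, the neighbouring gene of ROBO1, ranged from 36.0% in daughter 2 to 58.3% in daughter 3 (n = 6). It had 57.1% in daughter 4 and 40% in daughter 10, so it lay on the other side of 50% from ROBO1 in daughter 4 and on the same side in daughter 10. ROBO3, the receptor of midline-crossing axons, had 78.6% of 14 reads and 77.0% of 61 reads in daughters 2 and 5, and 27.3% to 53.8% in the other 5 daughters. ROBO4, the Robo of blood vessels, ranged from 20% of 10 reads to 65.3% of 49, with a median of 51.7% (n = 6).

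Semaphorins are secreted or membrane-bound guidance cues. Of 16 rows 15 were measured, with 13 of 71 intervals off 50% (18.3%, against 20.1% over all genes). SEMA6D, a membrane semaphorin that binds plexin A receptors, had the widest spread of all 48 genes. Daughter 1 had 0 paternal among 12 reads (0 to 24.2), and daughters 2 to 5 had 49.6%, 50.1%, 54.3% and 53.1%. Daughters 7 to 10 had 76.2%, 82.8%, 45.3% and 61.7%. Daughter 7 had 193 reads (69.7 to 81.6) and daughter 8 had 169 (76.4 to 87.8). Daughters 2 to 5 held together near 50%, and daughters 7 and 8 lay above all others. Daughters 1, 7 and 8 carry the same father label. As labelled, daughters 7 and 8 lay on the other side of 50% from daughter 1. With the columns of daughters 7 and 8 exchanged their shares would be 23.8% and 17.2%, on the side of daughter 1. Daughter 1 rests on 12 reads, and none of the genes that show which way the columns point was measured in it. A link of SEMA6D shares to the father was not tested. The SD over daughters was 23.4 points, and 13.5 without daughter 1. SEMA6B, of the same class, was the narrowest gene of the set, with 47.9%, 48.9%, 45.05%, 48.3% and 47.3% in daughters 2 to 6, an SD of 1.49.

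Among the class 4 semaphorins, SEMA4B ranged from 25.5% of 47 reads in daughter 4 to 59.1% in daughter 7, with a median of 46.3% (n = 9). SEMA4D, a ligand of plexin B receptors, ranged from 40.1% (daughter 9) to 60% (daughter 8), and had a median of 50.3% (n = 7). SEMA4C, SEMA4F and SEMA4G were measured in 3 to 5 daughters. The secreted class 3 semaphorins were thinly read, at 10 to 76 reads per measurement. SEMA3E, the ligand of PLXND1, had 73.2%, 40.9%, 69.6% and 52.6% in daughters 3, 5, 7 and 8, and only daughter 3 had an interval off 50%. SEMA3G, a semaphorin of vessels, had 28.4% of 67 reads in daughter 2 (18.97 to 40.1), 58.8% in daughter 5 and 59.1% in daughter 9. SEMA3D ranged from 35.0% to 64.7% with all intervals holding 50% (n = 7). SEMA7A, a lipid-anchored semaphorin that binds PLXNC1, had 44.1%, 37.1%, 50% and 53.1% in daughters 2, 3, 5 and 8.

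Plexins, the semaphorin receptors, gave 15 intervals off 50% among 49 measurements (30.6%, against 20.1% over all genes), 5 above (10.2%, against 9.50%) and 10 below (20.4%, against 10.6%). PLXNB3 and PLXNA3, which are X-linked, gave 6 of the 15 and are described below. PLXNB3 gave 1 above and 3 below, and PLXNA3 gave 1 above and 1 below. The percents here therefore mix autosomal and X-linked plexins. PLXNA4, a receptor for class 3 and class 6 semaphorins, had 48%, 51.6%, 43.7%, 60.4% and 31.8% in daughters 2 to 6, and 41.6%, 59.4%, 48% and 54.7% in daughters 7 to 10. Its lowest value, in daughter 6, rested on 239 reads (26.2 to 37.9). Daughters 4 and 6 lay below 50% and daughters 5 and 8 above, with intervals that left it out. Daughters 4 and 5 carry the same father label and lay on opposite sides. PLXNB2 ranged from 42.3% (daughter 3) to 54.5% (daughter 9), and had a median of 49.2% (n = 9), and its 2 intervals off 50%, in daughters 3 and 5, lay below. PLXNC1 ranged from 35.0% of 20 reads in daughter 1 to 56.9% in daughter 9, with a median of 50.2% (n = 10), and 42.1% of 546 reads in daughter 8 was its only departure. PLXND1 had 34.9% of 152 reads in daughter 2 (27.8 to 42.7) and 73.4% of 64 in daughter 8 (61.5 to 82.7), with the other 6 daughters between 45.8% and 58.7%.

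**Figure D3:**
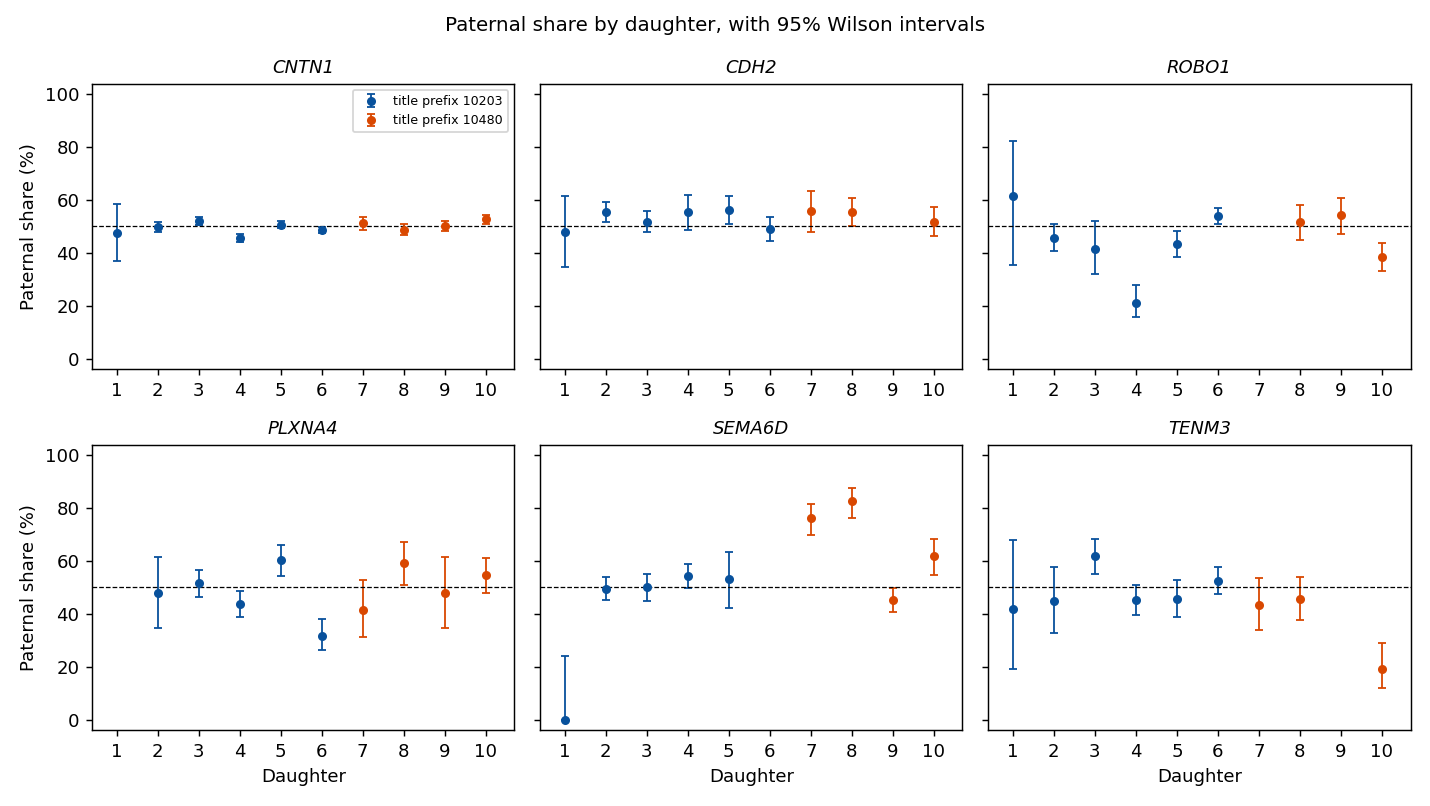
Paternal share (percent) in each daughter with 95% Wilson intervals, for 6 genes of different families, coloured by title prefix. CNTN1 and CDH2 stay near 50%, ROBO1 is lowest in daughter 4 at 21.2%, PLXNA4 lies on both sides, SEMA6D is highest in daughters 7 and 8, and TENM3 is lowest in daughter 10.

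Eph receptors and ephrins, which signal in both directions where cells touch, had few reads. Of 23 Eph measurements 3 had an interval off 50% (13.0%, against 20.1% over all genes). EPHA5, a receptor for ephrin-A ligands, ranged from 37.1% of 89 reads in daughter 9 to 57.1% in daughter 5, with a median of 49.3% (n = 6). EPHB1 had 52.0%, 69.2%, 58.8%, 57.6% and 42.1% in daughters 3, 5, 6, 8 and 9, and the deepest of these, daughter 6 with 182 reads, had the only interval off 50% (51.5 to 65.7). EPHB6, a receptor without kinase activity, ranged from 29.4% to 55.8% with a median of 44.7% (n = 6), on 12 to 43 reads. EPHA3 had 82.1% of 28 reads in daughter 2 (64.4 to 92.1), against 27.8% to 60% in the other 3 daughters. The ephrin EFNB3 had 51.2% of 86 reads in daughter 5.

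The netrin receptors UNC5B, UNC5C and UNC5D mediate repulsion. UNC5B was lowest in daughter 9 (23.1% of 13 reads) and highest in daughter 1 (66.7% of 12), with a median of 44.4% (n = 9), and its 2 intervals off 50%, in daughters 4 and 7, lay below. UNC5C ranged from 41.1% in daughter 5 to 76.2% of 21 reads in daughter 9, with a median of 52.9% (n = 9). UNC5D ranged from 38.5% (daughter 9) to 60% (daughter 4), and had a median of 47.1% (n = 7). UNC50 had 48.6%, 47.8% and 49.3% in daughters 4, 5 and 6, on 142 to 201 reads. Daughters 2, 3 and 8, with 14, 16 and 40 reads, had 14.3%, 68.8% and 82.5%, so its 3 deeply read daughters sat together and the thin ones lay apart.

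The X-linked genes of the set were PLXNA3, PLXNB3, EFNB1 and TENM1. In female mammals an X chromosome is silenced in every cell, so a tissue mixes cells that use either parental X. PLXNB3, a plexin known from oligodendrocytes in rodents, had 32.5%, 64.3%, 18.4% and 51.9% in daughters 3 to 6, and 64%, 47.6%, 34.6% and 23.8% in daughters 7 to 10. Its lowest value, in daughter 5, rested on 103 reads (12.1 to 27.0). PLXNA3, a receptor for class 3 semaphorins, had 76.3%, 33.3%, 47.4%, 42.9% and 31.6% in daughters 4, 5, 6, 9 and 10. EFNB1, a ligand of EphB receptors, had 36.8% of 19 reads and 8.33% of 12 reads in daughters 5 and 10, and TENM1 had 27.3% of 11 in daughter 10. Both plexins were highest in daughter 4 and lowest in daughters 5 and 10.

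These levels moved with the other X-linked genes of the same daughter. The median of X-linked genes outside the set with 20 or more reads was 73.6%, 27.7% and 29.7% in daughters 4, 5 and 10. Of the 16 X-linked measurements of the set, 14 lay on the same side of 50% as that median, and the exceptions were PLXNB3 in daughters 6 and 8. Their intervals left out 50% in 7 of 16 (43.8%), against 53.2% of X-linked measurements outside the set and 18.05% of the set's autosomal ones, where the background was 18.9%. Over the 10 daughters the median of the set's autosomal genes lay between 47.4% and 52.3%.

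**Figure D4:**
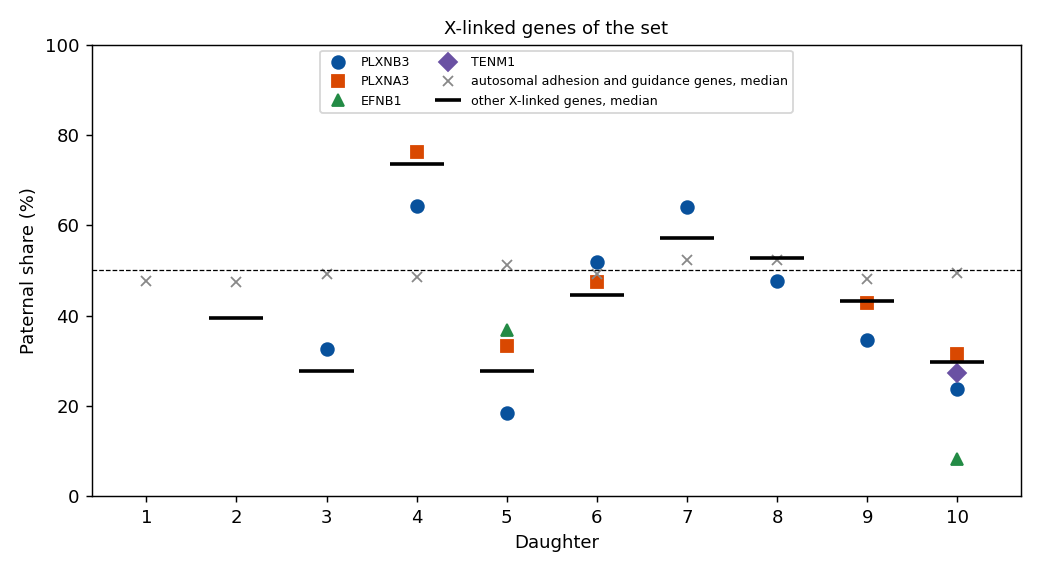
Paternal share (percent) of the 4 X-linked adhesion and guidance genes in each daughter, with the median of other X-linked genes (black bars, daughters with 20 or more such genes) and of the set's autosomal genes (crosses). In daughters 4, 5 and 10 the X-linked genes lie with the black bars, while the crosses stay near 50%.

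The sample titles carry the prefixes 10480 (4 daughters) and 10203 (6 daughters). The labels do not say what the prefix stands for. It also went with depth: the median measurement of the set had 44 reads in prefix 10480 and 61 in prefix 10203. Their parental ratios differed for 0 of the 48 genes tested at an adjusted p of 0.05 by edgeR, against 0.0335% of all 2981 genes, and 0 by DESeq2. SEMA3F and SEMA6B, among the 48, had no reads in prefix 10480, so the fit could not find a difference for them. Genes of that kind were not taken out of the 48 or of the background. At an unadjusted p under 0.05 there were 3 by edgeR (6.25%, against 3.56% over all genes), which were CNTN3, UNC5C and UNC50. DESeq2 gave 2, against 71 of 2981 over all genes. CNTN3 had 35.0%, 42.1% and 44.3% in daughters 8, 9 and 10 of prefix 10480, against 61.0%, 64.7%, 54.5%, 61.7% and 61.2% in daughters 2 to 6 of prefix 10203. The prefixes did not overlap, as in 2 of 44 genes of the set (4.55%, against 10.5% over all genes), and only daughter 5, with 107 reads, had an interval off 50%. CNTN3 was also the 1 gene of the 44 whose prefixes lay on opposite sides of 50% (2.27%, against 2.24% over all genes). With the columns of daughters 2, 6, 8 and 9 exchanged the prefixes overlapped, at 44.3% to 65.0% in prefix 10480 and 38.8% to 64.7% in prefix 10203. The log2 difference was -1.16 ± 0.32 (SE, edgeR adjusted p = 1). It was 0.95 ± 0.39 for UNC5C and 2.05 ± 0.89 for UNC50 (SE, edgeR adjusted p = 1 each). In prefix 10480 UNC50 was measured in daughter 8 alone, with 82.5% of 40 reads, and daughter 7 had 4 reads. Both differences take the columns as labelled. Intervals left out 50% in 17.6% of 153 measurements in prefix 10480 and 19.8% of 262 in prefix 10203, against 18.2% and 21.2% over all genes.

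Shared parents and shared neighbourhoods were looked at as descriptions. Over members with 20 or more reads in both daughters, the median difference in paternal share was 6.82 percentage points for pairs with a shared parent label and 6.79 for other pairs, and 5.74 and 7.31 with the columns of daughters 2, 6, 7, 8 and 9 exchanged. It was 6.98 over 40 genes for daughters 4 and 5, 8.73 over 18 genes for daughters 7 and 8, and 3.90 over 28 genes for daughters 6 and 10, the pair with a shared mother label. Genes of the set that sit close together, with at most 9 coding genes between them in the RefSeq order, formed 19 pairs. Where both were measured in a daughter, they lay on the same side of 50% in 25 cases and on opposite sides in 33. These cases share daughters and genes, so they are not independent.

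Genes outside the set that work with these families were read from a separate list of 71 ligands, co-receptors and cytoplasmic partners. The table held 29 of these and 19 could be tested, with 0 higher and 0 lower on the paternal allele at an adjusted p of 0.05 by edgeR. At an unadjusted p under 0.05 there were 0 of the 19, against 3.12% over all genes. Their intervals left out 50% in 24 of 162 measurements (14.8%, against 20.1% over all genes). The best read was DPYSL2, an intracellular mediator of semaphorin signals, with 44.1% to 52.3% and a median of 50.4% (n = 9). PTPRS, a receptor phosphatase of synapses, ranged from 41.6% to 60.6% with a median of 49% (n = 10). CRMP1, a relative of DPYSL2, ranged from 38.3% to 54.3% with a median of 49.1% (n = 10), and PTPRD, another receptor phosphatase, from 37.5% to 61.3% with a median of 52.7% (n = 10).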

How the data were processed

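Per the labels' protocols, ribosomal RNA was removed from total RNA of the dorsal raphe nucleus, and stranded libraries were read from both ends for 101 cycles; the text also mentions an antibody step on nuclei. The submitters' processing notes name Novoalign as the aligner, without a version. The authors deposited raw counts per gene, split into a paternal and a maternal column for each animal, and the headers name macFas5 as build. Neither the phasing nor the use of strand in counting is given in the sources used here, so reads of overlapping or antisense genes, or of near-identical copies, cannot be told apart.

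Columns were matched to samples by title. The quasi-likelihood test of edgeR 4.0.16 (R 4.3.3, robust prior) set the paternal against the maternal column over the whole table. The daughter was the block, and both alleles shared their summed library size. Only the 2981 genes that reached 10 allelic reads in at least 5 daughters entered, with Benjamini-Hochberg adjustment at 0.05. DESeq2 1.42.0 was the other tool. Both fits were first tested on simulated data, where the prefix fit recovered far fewer changes than the parental fit and missed most of the smaller ones. Intervals are 95% Wilson intervals.

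Daughters are separate animals of 1 group. X-linkage and gene order came by symbol from the RefSeq gene table of T2T-MFA8v1.1, another build, so no coordinates are given; it matched all 79 genes. Genes and lists were chosen with earlier results of these data known. Not every gene of the set is reported here by name. Values are given by a rule on family, depth, spread, p and X-linkage, and beyond it for further genes chosen after their values were seen. Alternatives were TMM normalisation, other read filters and minimums, DESeq2, no block, a 99% interval, autosomal genes only, leaving out each daughter, and leaving out daughters 2, 6, 7, 8 and 9 together or exchanging their columns (both added after seeing the data). Shares and figures were made with pandas 2.3.3, SciPy 1.17.1, NumPy 2.4.6 and matplotlib 3.10.9 under Python 3.11.15.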

Additional observations from a re-analysis of the deposited data

Results flagged for a closer look

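In 4 of 52 adhesion and guidance genes measured in 4 to 10 daughters, 1 daughter's paternal share stood apart from the others by Dixon's criterion (7.69%, against 11.7% of all 3646 such genes). The criterion flags about 1 in 20 groups by chance where values are equally precise, which shares on few and on many reads are not. CNTN5 had 78.8% of 66 reads in daughter 6, against 34.6% to 47.4% in the other 6 daughters. NCAM1 had 100% of 16 reads in daughter 7, against 46.8% to 58.3% in the other 9, of which the next lowest in depth, daughter 1, had 60 reads. SEMA6D had 0% of 12 reads in daughter 1, against 45.3% to 82.8% in the other 8. TENM3 had 18.99% of 79 reads in daughter 10, against 41.7% to 61.8% in the other 8.

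In CNTN3, 1 of 44 genes with 2 or more daughters of each prefix (2.27%, against 2.24% of all 2861 such genes), every measured daughter of prefix 10480 lay below 50% and every measured daughter of prefix 10203 above it. The mean share was 40.5% in 3 daughters of prefix 10480 and 60.6% in 5 of prefix 10203, a difference of -20.2 percentage points. The test of that difference did not pass (edgeR adjusted p = 1). The split rests on the columns as labelled: with those of daughters 2, 6, 8 and 9 exchanged, both prefixes had daughters above and below 50%.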

How the results depend on the processing

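No adhesion or guidance gene was called between the parents or between title prefixes under any alternative run. Over all genes, the parental test called 2 without the read filter (FAM199X and ZIM2). It called 2 without daughters 2, 6, 7, 8 and 9, on a lower read filter (DLK1 and GRB10). The values of these 2 genes chose those daughters, and that alternative was added after seeing the data. Leaving out each daughter gave 0 to 1, the 1 being TSPAN7 without daughter 4. The prefix test, with 1 call over all genes, gave 0 without the filter, 0 with 10 reads in 8 daughters and 0 with DESeq2. With the columns of daughters 2, 6, 7, 8 and 9 exchanged, also added after seeing the data, the genes of the set with daughters off 50% on both sides were 16, against 11 as labelled, and those on 1 side only 3, against 8. Without the replicate block the parental test called 0 genes, and 0 had an unadjusted p under 0.05.

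The percent of the set's measurements with an interval off 50% was 25.3 with 50 or more reads and 9.16 with a 99% interval, where the background is 11.3. The percent of the set's measurements between 40% and 60% was 86.0 with 50 or more reads, with no share over all genes given at that minimum. Fewer and deeper measurements enter under the higher minimum. Leaving out each daughter gave, in the set alone, 18.2% to 19.9% off 50%, 70.8% to 73.6% between 40% and 60%, and a median SD of 9.30 to 10.46 points. The mean shares of single genes moved by less than their SD over daughters in all 72 comparisons with 20 or more reads or with summed reads. That SD includes the thin measurements which the higher minimum drops, so it is a loose measure. For NCAM1 the mean moved from 56.5% to 51.6% with 20 or more reads. Its SD was 15.6 points with daughter 7 and 3.45 without it. Depth limits what thin genes can show: at 10 reads only a share of 90% or more has an interval that leaves out 50%.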
